A study of Mus musculus with 8 samples.

Results

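The insulin-like growth factor (IGF) binding proteins and receptors are a family of 10 mouse genes, chosen by name: the 7 binding protein genes Igfbp1 to Igfbp7 and the 3 receptor genes Igf1r, Igf2r and Insr. All 10 were found once each among the 47729 gene identifiers of the deposited table. Their RNA was followed in EpCAM-sorted ductal cells of healthy adult livers from male C57/B6 mice, before and during growth as organoids, by RNA sequencing of 8 low-input libraries. Freshly sorted cells (0 h) gave 2 libraries, cells in Matrigel with organoid medium gave 2 at 12 h, 1 at 24 h and 1 titled 48h, and organoids gave 2 at 6 days. The last single library carries 24 h as its time elsewhere in the labels, so it was kept apart and is called the 48h-titled library. No transgene, deletion or drug is named for any group, and culture and its length are the differences between groups that the labels name. The labels give no number of animals per library and do not tie replicates to different mice. The p-values therefore reflect the spread between these libraries alone, which may be technical.

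IGF1 and IGF2 are secreted growth factors that act through the IGF1 receptor, a tyrosine kinase close in structure to the insulin receptor. The classical binding proteins hold the growth factors with high affinity, lengthen their life and keep them from the receptor until a protease releases them, while IGFBP7 binds IGFs weakly. In the adult liver hepatocytes are the main source of circulating IGF1 and of IGFBP1, whose gene is shut down by insulin through FOXO factors, and they carry many insulin receptors but few IGF1 receptors.

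Levels are the authors' RPKM, a read number divided by gene length and sequencing depth. Comparisons between genes are thus corrected for length and for no other difference between genes. Effective depth ran from 13833143 to 28468920 reads. The 24 h library had the fewest genes above 0, 13895, and a fresh library the most, 21132. Read numbers of 9 of the 10 members came out whole, within 0.05, in all 8 libraries once RPKM was multiplied by exonic length and depth. The exception was Igf2r, for which read numbers are not given. All 10 ductal markers stood at 1 RPKM or more in each of the 8 libraries. Epcam, the sorting antigen, lay between 513 and 1175 RPKM, and the ductal keratin gene Krt19 between 162 and 1920 RPKM.

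The promoter windows of 4 binding protein genes are shown. Of these, Igfbp3, Igfbp4 and Igfbp7 were at their highest levels in culture. Igfbp1 was detected in fresh cells only, as was Igfbp2, whose window is not shown. Each window runs 5′ to 3′ from 250 bases before to 50 bases after the RefSeq start, on build GRCm38.p6, and capitals mark the motifs named after it. The windows are chr11:7213874-7214173 (minus strand) for Igfbp3, chr11:99040994-99041293 (plus strand) for Igfbp4, chr5:77407996-77408295 (minus strand) for Igfbp7 and chr11:7197537-7197836 (plus strand) for Igfbp1.
Igfbp3: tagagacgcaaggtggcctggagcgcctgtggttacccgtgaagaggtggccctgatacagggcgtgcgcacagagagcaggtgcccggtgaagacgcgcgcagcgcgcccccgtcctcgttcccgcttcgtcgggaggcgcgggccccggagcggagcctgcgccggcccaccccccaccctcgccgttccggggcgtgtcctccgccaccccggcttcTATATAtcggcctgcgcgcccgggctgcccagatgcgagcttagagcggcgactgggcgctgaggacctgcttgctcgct
Igfbp4: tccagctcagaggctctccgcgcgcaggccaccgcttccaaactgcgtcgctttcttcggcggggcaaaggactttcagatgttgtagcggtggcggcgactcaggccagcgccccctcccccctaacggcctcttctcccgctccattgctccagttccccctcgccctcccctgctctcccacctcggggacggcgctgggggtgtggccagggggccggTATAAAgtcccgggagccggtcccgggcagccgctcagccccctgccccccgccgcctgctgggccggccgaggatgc
Igfbp7: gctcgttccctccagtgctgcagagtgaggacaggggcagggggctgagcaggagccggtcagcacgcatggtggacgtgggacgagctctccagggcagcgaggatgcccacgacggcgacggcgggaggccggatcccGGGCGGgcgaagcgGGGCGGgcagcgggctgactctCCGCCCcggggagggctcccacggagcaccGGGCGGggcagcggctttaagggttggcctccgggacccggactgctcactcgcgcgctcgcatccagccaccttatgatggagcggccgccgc
Igfbp1: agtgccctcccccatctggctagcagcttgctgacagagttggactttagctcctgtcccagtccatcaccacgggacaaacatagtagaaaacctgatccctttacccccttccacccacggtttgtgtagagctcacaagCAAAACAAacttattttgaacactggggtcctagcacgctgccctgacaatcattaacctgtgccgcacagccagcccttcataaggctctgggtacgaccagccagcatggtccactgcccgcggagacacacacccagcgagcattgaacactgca
Igfbp3 carried the letters TATATA at position −30 from its start, and Igfbp4 carried TATAAA at −28. Igfbp7 held neither, but had 4 copies of the GC box GGGCGG, 1 of them on the opposite strand. Igfbp1 held CAAAACAA at position −108, the first letters of the element through which insulin lowers the human gene. On either strand, 5.67% of 32851 windows of the same length held TATATA, 13.6% held TATAAA, 35.7% held GGGCGG and 2.51% held CAAAACAA. The E-box CACGTG, also searched for, was in none of the 4 windows shown but in those of Igfbp2 and Igf2r, and in 7.15% of all windows. Such matches describe the letters only. A window was found for 9 of the 10 members. The windows of Igfbp3, Igfbp7 and Igfbp4 held 37, 33 and 27 CG dinucleotides and that of Igfbp1 held 8, where the median window held 7. Those of Igfbp2, Igfbp5 and Igfbp6 held 18, 10 and 8, and those of Igf1r and Igf2r held 48 and 34. GGGCGG was also in the windows of Igfbp2, Igf1r and Igf2r, so neither feature was particular to the genes higher in culture. The window of Igfbp6 held TATAAA at −148, on the opposite strand.

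On GRCm38 the pair Igfbp1 (chromosome 11:7197782-7202546) and Igfbp3 (11:7206086-7213923) lie tail to tail with 3539 bases between them. The pair Igfbp2 (1:72824503-72852474) and Igfbp5 (1:72857932-72874884) lie the same way with 5457 bases between them. Igfbp4 is at 11:99041244-99054392, Igfbp6 at 15:102144362-102149511, Igfbp7 at 5:77349240-77408041, Igf1r at 7:67952827-68233668, Igf2r at 17:12682406-12769664 and Insr at 8:3122061-3279617. All 10 are annotated as protein-coding in GENCODE M21.

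Igfbp7, Igfbp4 and Igfbp3 made up almost all binding protein RNA, and each had its own time course. Igfbp7 was already abundant in fresh cells and was highest in organoids, Igfbp4 was low until 24 h and high in the 48h-titled library and in organoids, and Igfbp3 was high from 12 h on. The summed level of the 7 binding protein genes was 494 and 690.3 RPKM in fresh cells, 538 and 742 at 12 h, 1745 at 24 h, 1365 in the 48h-titled library and 3607 and 2958 RPKM in organoids. That sum was 0.809% and 0.824% of all RPKM in organoids, against 0.134% and 0.193% in fresh cells. Igfbp7 alone supplied between 88.7% and 98.8% of the sum in every library. In the fresh libraries Igfbp4 gave 1.06% and 0.835% of the sum and Igfbp3 0.428% and 0.0975%, while at 12 h Igfbp3, at 5.39% and 1.95%, stood above Igfbp4, at 1.22% and 0.484%. In organoids Igfbp4 was again above Igfbp3, at 4.27% and 9.97% against 0.517% and 1.38%.

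**Figure D1:**
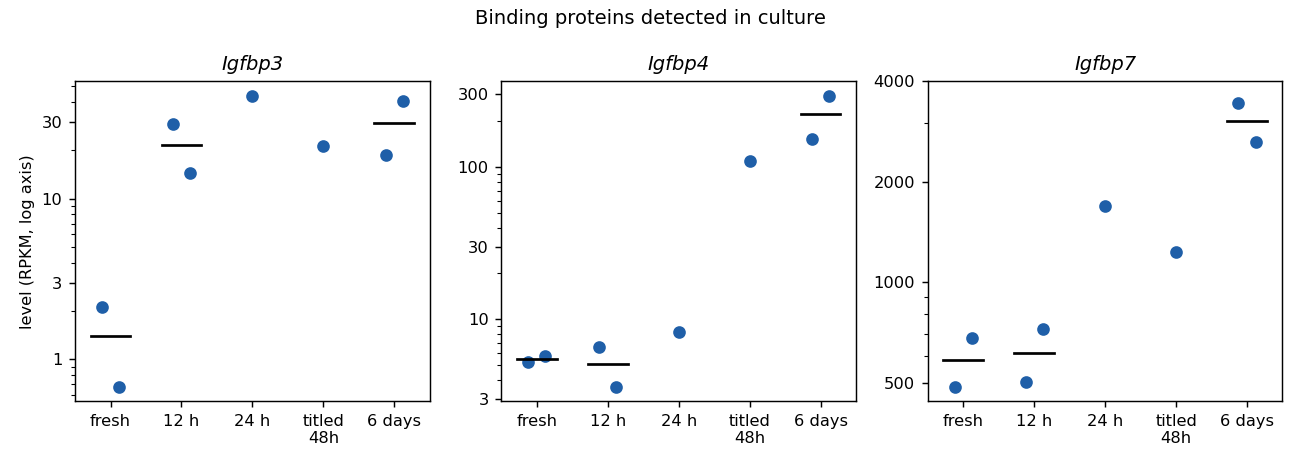
Levels (RPKM, log axis, a separate scale for each gene) of Igfbp3, Igfbp4 and Igfbp7 in the 8 libraries, by time in culture. Points are libraries and bars the mean where there are 2. Igfbp3 is lowest in fresh cells, Igfbp4 stays at or below 8.30 RPKM up to 24 h, and Igfbp7 is highest in the organoids.

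Igfbp7, a secreted protein of basement membranes and vessels that binds IGFs weakly, stood at 485 and 682 RPKM in fresh cells, 502 and 724 at 12 h, 1693 at 24 h, 1235 in the 48h-titled library and 3434 and 2622 RPKM in organoids. These values rest on 8937 reads or more per library. The organoid libraries were the highest, the 2 single libraries came next, and the fresh and 12 h libraries overlapped. Among all genes of the table Igfbp7 ranked 85 and 58 by level in fresh cells, 51 and 31 at 12 h, 12 at 24 h, 14 in the 48h-titled library and 10 and 8 in organoids. It rose 5.19-fold in organoids, to 3028 ± 574 RPKM against 583 ± 140 RPKM in fresh cells (SD, n = 2 each). The fitted log2 change was 2.38 (SE 0.42, limma adjusted p = 0.0222). At 12 h it stood at 613 ± 157 RPKM, and the log2 change from fresh cells was 0.07 with a 95% interval from −0.93 to 1.06 (limma adjusted p = 0.937). Organoids were 4.94-fold above 12 h, a log2 change of 2.31 that missed the threshold (limma adjusted p = 0.0507). This last value crossed the threshold with a pseudocount of 0.1 (adjusted p = 0.0484) or with only genes averaging 5 RPKM or more tested (0.034). The call in organoids against fresh cells was lost without fresh replicate 1 (adjusted p = 0.234), fresh replicate 2 (0.207) or organoid replicate 1 (0.0669), and with no filter on low values (0.0726).

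Igfbp7 is also a gene of endothelium. The summed level of 10 endothelial markers was 0.313 and 0.511 RPKM in organoids against 5.21 and 5.46 RPKM in fresh cells. In each organoid library 8 of the 10 were listed at 0. The sum was 0.0382 and 1.72 RPKM at 12 h, 0.0129 at 24 h and 2.17 RPKM in the 48h-titled library. There Eng, at 2.08 RPKM, was above both fresh values (1.89 and 1.94 RPKM). The part of endothelial cells in the values of Igfbp7 was not tested. The last exon of Igfbp7 shares 85 exonic bases with Polr2b on the opposite strand, a subunit gene of RNA polymerase II. Polr2b stood at 17.5 and 30.9 RPKM in organoids and at 15.6 and 19.4 RPKM in fresh cells. The sources used here do not give how reads in the shared bases were assigned.

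Igfbp4, a binding protein that mostly restrains IGF action and is cut by the protease PAPP-A, stood at 5.24 and 5.77 RPKM in fresh cells, 6.54 and 3.59 at 12 h, 8.30 at 24 h, 110 in the 48h-titled library and 154 and 295 RPKM in organoids. The fresh and 12 h libraries overlapped, the 24 h library was slightly above both, and the library titled 48h stood between those and the organoids. By reads, Igfbp4 had 10599 in the 48h-titled library, against 704 at 24 h. Its rank among all genes was 6274 and 5871 in fresh cells, 577 in the 48h-titled library, and 444 and 138 in organoids. It rose 40.8-fold in organoids, to 224 ± 99.6 RPKM against 5.50 ± 0.372 RPKM in fresh cells (SD, n = 2 each). The log2 change was 5.04 (SE 0.46, limma adjusted p = 0.00649), which ranked 7 among the 12900 genes tested. Organoids were 44.3-fold above the 5.07 ± 2.08 RPKM at 12 h, a log2 change of 5.18 (SE 0.46, limma adjusted p = 0.0183). Between 12 h and fresh cells the log2 change was −0.14, with a 95% interval from −1.23 to 0.95 (limma adjusted p = 0.875). The call against fresh cells was lost without fresh replicate 1 (adjusted p = 0.0826) or fresh replicate 2 (0.0718). The call against 12 h was lost without 12 h replicate 1 (0.0539), 12 h replicate 2 (0.0539) or organoid replicate 1 (0.0731), with no filter (0.0845) and with only the groups compared (0.186).

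Igfbp3, the main carrier of IGFs in blood, which with IGFALS forms a long-lived complex, stood at 2.12 and 0.673 RPKM in fresh cells, 29.0 and 14.5 at 12 h, 43.9 at 24 h, 21.2 in the 48h-titled library and 18.7 and 40.7 RPKM in organoids. The reads behind these values were between 808 and 2637 in the 6 cultured libraries, against 101 and 60 in fresh cells. Each cultured library was above both fresh ones, and among the cultured libraries no order by time was seen. Igfbp3 rose 15.6-fold at 12 h, to 21.7 ± 10.3 RPKM against 1.39 ± 1.02 RPKM in fresh cells (SD, n = 2 each), with a log2 change of 3.24 (SE 0.58, limma adjusted p = 0.0339). In organoids it rose 21.3-fold against fresh cells, to 29.7 ± 15.6 RPKM, with a log2 change of 3.65 (SE 0.58, limma adjusted p = 0.018). Organoids and 12 h overlapped, and the log2 change between them was 0.41 with a 95% interval from −0.98 to 1.80 (limma adjusted p = 0.733).

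Both calls of Igfbp3 were lost when any 1 of the libraries compared was left out. At 12 h against fresh cells the adjusted p was then 0.177 without fresh replicate 1, 0.276 without fresh replicate 2, 0.0874 without 12 h replicate 1 and 0.0584 without 12 h replicate 2. In organoids against fresh cells it was 0.134 without fresh replicate 1, 0.205 without fresh replicate 2, 0.0599 without organoid replicate 1 and 0.0587 without organoid replicate 2. The log2 change stayed between 2.76 and 3.72 in the first comparison and between 3.11 and 4.19 in the second. With no filter on low values the adjusted p was 0.0923 at 12 h and 0.0658 in organoids, and with only the groups compared it was 0.0502 at 12 h.

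Over the family, 6 of the 10 members passed the filter of at least 1 RPKM in at least 2 libraries and were tested. In organoids against fresh cells 3 of these 6 were called higher and 0 lower, where 10.1% of all 12900 genes tested were called, 5.15% higher and 4.94% lower. At 12 h against fresh cells 1 was called higher and 0 lower, against 6.81% of all genes (3.09% higher and 3.72% lower), and between organoids and 12 h 1 was called higher and 0 lower, against 2.0% (1.38% higher and 0.620% lower). The libraries did not overlap for 5 of the 6 in organoids against fresh cells, 4 higher and 1 lower, as for 64.7% of all genes, 38.1% higher and 26.6% lower. At 12 h against fresh cells they did not overlap for 2 of the 6, both higher, against 62.2% of all genes (38.6% higher). Between organoids and 12 h they did not overlap for 2 of the 6, both higher, against 44.9% (20.8% higher). Of all genes, 1301 were called in organoids against fresh cells, 664 higher and 637 lower, and 878 at 12 h, 398 higher and 480 lower. With the library median subtracted these became 556 higher and 836 lower, and 300 higher and 839 lower. Over genes averaging 5 RPKM or more the median log2 change was 0.27 in organoids and 0.40 at 12 h against fresh cells, and −0.17 in organoids against 12 h. Centring subtracted the median level of each library, which is not the same as subtracting these median changes. After centring, the log2 changes in organoids against fresh cells were 3.50 for Igfbp3, 4.90 for Igfbp4 and 2.24 for Igfbp7. At 12 h the change of Igfbp3 was then 2.87, and all of these were still called.

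**Figure D2:**
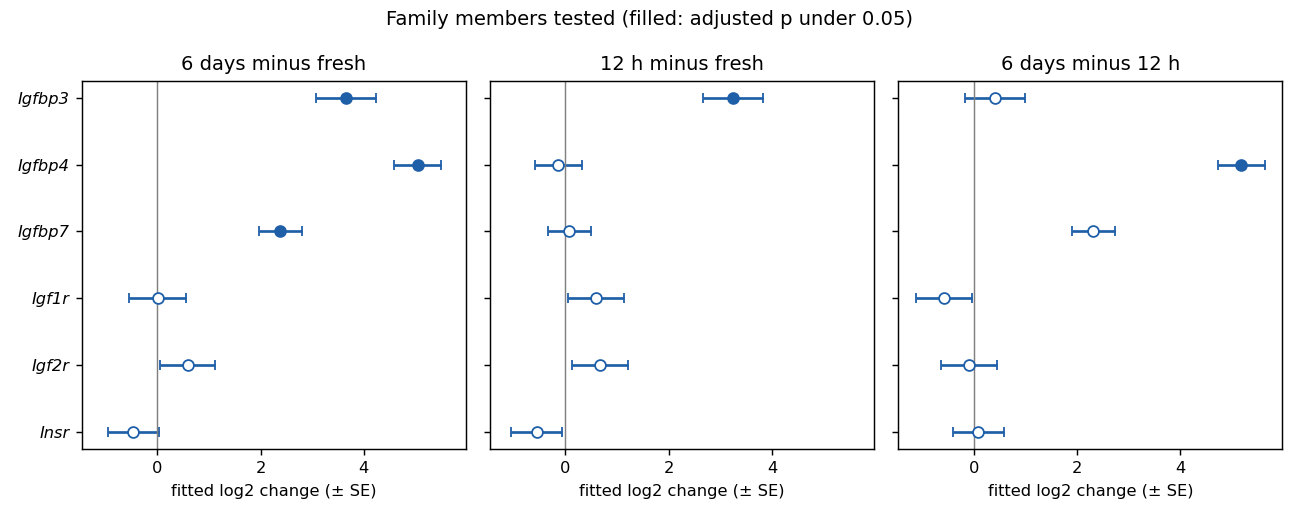
Fitted log2 changes (points, with bars of 1 SE) of the 6 members tested, in organoids minus fresh cells, 12 h minus fresh cells and organoids minus 12 h. Filled points had an adjusted p under 0.05, namely Igfbp3, Igfbp4 and Igfbp7 on the left, Igfbp3 in the middle and Igfbp4 on the right.

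The other 4 binding protein genes did not reach 1 RPKM in any library. Igfbp1, the insulin-regulated binding protein of hepatocytes, stood at 0.731 and 0.576 RPKM in fresh cells, from 17 and 25 reads, and was listed at 0 in the other 6 libraries. A count of 0 allows up to 3 reads, which would be between 0.0898 and 0.142 RPKM in those 6 libraries. Igfbp2, a binding protein abundant in fetal liver, stood at 0.816 and 0.875 RPKM in fresh cells, from 23 and 46 reads, and was likewise listed at 0 in the other 6, where 3 reads would be between 0.0742 and 0.117 RPKM. Igfbp5, a binding protein typical of connective tissue, stood at 0.273 and 0.357 RPKM in fresh cells, from 25 and 61 reads. It was listed at 0 in the 2 libraries at 12 h, at 24 h and in the 48h-titled library, and came to 0.0722 and 0.00824 RPKM in organoids, from 6 reads and 1 read. Igfbp6, which prefers IGF2, was detected in organoid replicate 2 alone, by 1 read. Igfbp1, Igfbp2 and Igfbp5 were thus higher in both fresh libraries than in any cultured one. Their levels were too low for the filter, so the counts over the 6 members tested leave them out. The fresh libraries, with 19279 and 21132 genes above 0, also detected more genes than any cultured one, where the range was 13895 to 19061. The share of all genes at such low levels with the same pattern was not counted. With no filter on low values, Igfbp1 and Igfbp2 passed as lower in organoids (limma adjusted p = 0.0279 and 0.0256) and at 12 h (0.0354 and 0.0325), each against fresh cells, where 1.79% and 1.26% of 26693 genes were called lower. Igfbp5 did not pass in that run (limma adjusted p = 0.0585 in organoids and 0.0581 at 12 h). For Igfbp1 and Igfbp2 the 12 h and organoid libraries were all at 0 and added no spread, so the SE was small (0.0597 and 0.0482). Their p-values in that run therefore do not measure variation between cultured libraries.

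**Figure D3:**
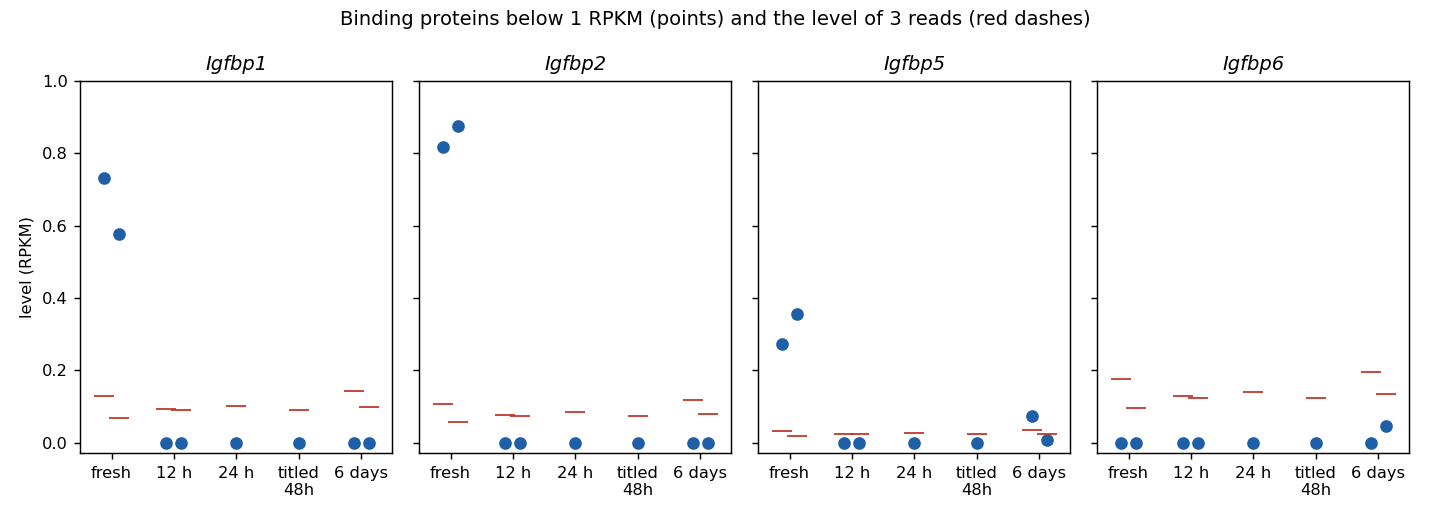
Levels (RPKM, linear axis) of Igfbp1, Igfbp2, Igfbp5 and Igfbp6 in the 8 libraries, with red dashes at the level that 3 reads would give in each library. Igfbp1 and Igfbp2 stand above the dashes in the fresh libraries only, and Igfbp6 is below them everywhere.

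Like Igfbp1, Igfbp2 and Igfbp5, the marker sums of hepatocytes, stellate cells without Rgs5 and mesothelium without Msln were lower in every cultured library. The immune sum overlapped between fresh and cultured libraries. Rgs5 was higher at 12 h and 24 h, and Msln was higher in every cultured library. Both genes belong to these lists and were left out of the sums with their values known. With Rgs5 the stellate sum was 181 and 389 RPKM at 12 h, against 81.7 and 65.4 RPKM in fresh cells. With Msln the mesothelial sum was 37.9 and 48.6 RPKM at 12 h, against 55.1 and 57.2 RPKM in fresh cells. In organoids the mesothelial sum with Msln was 489 and 475 RPKM. The summed level of 12 hepatocyte markers was 1077 and 1026 RPKM in fresh cells, 41.1 and 53.4 at 12 h, 49.9 at 24 h, 171 in the 48h-titled library and 7.47 and 19.8 RPKM in organoids. Fgb, a fibrinogen gene, made up 79.7 RPKM of the sum in the 48h-titled library, against 12.2 and 9.15 RPKM in fresh cells. Alb, the albumin gene, stood at 0.0309 and 3.72 RPKM in organoids, against 488 and 660.1 RPKM in fresh cells. Of 12 stellate cell and fibroblast markers, the 11 other than Rgs5 summed to 14.7 and 4.37 RPKM in fresh cells. In the 6 cultured libraries they summed to between 0.125 and 3.03 RPKM. Dcn, at 8.12 and 2.58 RPKM, gave the largest part of the fresh sums. Of the 11, Col1a1, Col3a1 and Reln were higher in the 48h-titled library than in either fresh one, at 1.01, 0.763 and 0.375 RPKM. The others were not. Rgs5 itself reached 438 RPKM at 24 h and stood at 0.254 and 1.88 RPKM in organoids, against 66.9 and 61.0 RPKM in fresh cells. Of 8 mesothelial markers, the 7 other than Msln summed to at most 5.78 RPKM in any cultured library, against 25.8 and 35.9 RPKM in fresh cells. Msln itself went the other way, to 488 and 475 RPKM in organoids, against 29.3 and 21.4 RPKM in fresh cells. The 10 immune markers summed to between 4.88 and 29.6 RPKM over the 8 libraries, with Cd3e and Nkg7 listed at 0 in all 8. Bnc1 of the mesothelial list was also at 0 in all 8, and Pdgfrb and Lrat of the stellate list in 7. The part of these cells in the values of Igfbp1, Igfbp2 and Igfbp5 was not tested, and in bulk samples fewer cells of a type and less RNA per cell cannot be told apart. In organoids, where Igfbp3 and Igfbp4 were higher, the stellate and fibroblast sum was 0.453 and 2.14 RPKM with Rgs5 and 0.198 and 0.254 RPKM without it. At 12 h, where Igfbp3 was already high, Rgs5 stood at 179 and 389 RPKM. The part of these cells in the values of Igfbp3 and Igfbp4 was not tested.

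The 3 receptor genes were expressed at low levels, and 0 of them passed the test in any of the 3 comparisons, each at an unadjusted p above 0.25. Their summed level was 4.95 and 6.68 RPKM in fresh cells, 13.3 and 4.74 at 12 h, 8.81 at 24 h, 9.21 in the 48h-titled library and 5.20 and 8.08 RPKM in organoids. In every library the binding protein sum was above the receptor sum. For each receptor the 12 h replicates differed more from each other than the means of organoids, 12 h and fresh cells did.

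Igf1r, the signalling receptor for IGF1 and IGF2, stood at 1.56 and 3.09 RPKM in fresh cells, 6.06 and 2.33 at 12 h, 3.90 at 24 h, 4.04 in the 48h-titled library and 2.06 and 2.43 RPKM in organoids. Both organoid values lay between the fresh ones, and 12 h replicate 1 was the highest of all. The level was 2.25 ± 0.262 RPKM in organoids and 2.32 ± 1.08 RPKM in fresh cells (SD, n = 2 each), with a 95% interval of the log2 change from −1.30 to 1.30 (limma adjusted p = 0.999). At 12 h it was 4.19 ± 2.64 RPKM (limma adjusted p = 0.544 against fresh cells).

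Insr, the insulin receptor gene, stood at 1.55 and 1.64 RPKM in fresh cells, 1.69 and 0.157 at 12 h, 4.45 at 24 h, 1.81 in the 48h-titled library and 0.852 and 0.892 RPKM in organoids. The 12 h libraries held 487 and 47 reads of it, and the 24 h library, the one with the fewest genes detected, held 1175. Both organoid libraries were below both fresh ones, at 0.872 ± 0.0286 against 1.59 ± 0.0657 RPKM (SD, n = 2 each), but the log2 change of −0.47 did not pass (95% interval −1.65 to 0.71, limma adjusted p = 0.570). At 12 h the log2 change from fresh cells was −0.55 (limma adjusted p = 0.525), and it was 0.0547 without 12 h replicate 2. The ratio of Igf1r to Insr was 1.01 and 1.89 in fresh cells, 3.58 and 14.8 at 12 h, 0.876 at 24 h, 2.23 in the 48h-titled library and 2.42 and 2.73 in organoids. Igf1r was thus above Insr per length in each library except the one at 24 h.

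Igf2r, which encodes the mannose 6-phosphate receptor that clears IGF2 without signalling, stood at 1.85 and 1.95 RPKM in fresh cells, 5.58 and 2.25 at 12 h, 0.458 at 24 h, 3.36 in the 48h-titled library and 2.28 and 4.75 RPKM in organoids. Every cultured library but the one at 24 h was above both fresh ones. The log2 change in organoids against fresh cells was 0.58 with a 95% interval from −0.71 to 1.88 (limma adjusted p = 0.515), and at 12 h it was 0.67 (limma adjusted p = 0.475). Igf2r overlaps Airn, the imprinted antisense RNA that silences its paternal copy, though without shared exonic bases in GENCODE M21. Airn was at 5.20 and 4.72 RPKM in fresh cells, 7.10 and 3.43 at 12 h, 0 at 24 h, 0.115 in the 48h-titled library and 5.06 and 2.69 RPKM in organoids. The sources used here do not say whether counting used strand.

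**Figure D4:**
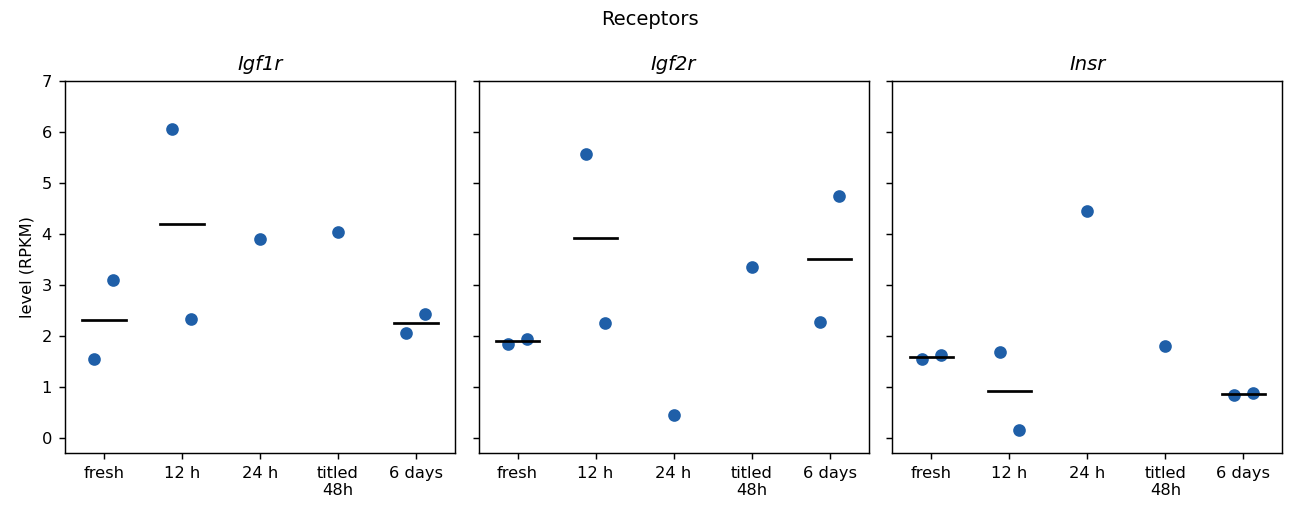
Levels (RPKM, one linear axis for all panels) of Igf1r, Igf2r and Insr in the 8 libraries, with bars at the mean of 2 libraries. The receptors stay below 7 RPKM, the 12 h replicates lie apart, and Igf2r and Insr have their lowest and highest values in the 24 h library.

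By group means, the order of the members within fresh cells was Igfbp7, Igfbp4, Igf1r, Igf2r, Insr, Igfbp3, Igfbp2, Igfbp1, Igfbp5 and Igfbp6. Below Igfbp4, the range of Igfbp3 overlapped those of Igf1r, Igf2r, Insr, Igfbp2 and Igfbp1, and that of Igf1r overlapped those of Igf2r and Insr, so the order among these is not set beyond their spread. In organoids the order was Igfbp7, Igfbp4, Igfbp3, Igf2r, Igf1r, Insr, Igfbp5, Igfbp6, with Igfbp1 and Igfbp2 at 0. There the first 3 did not overlap with each other, and Igf2r and Igf1r did.

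The ligand genes were low throughout. Igf1 stood at 3.64 and 4.75 RPKM in fresh cells, 0.665 and 8.32 at 12 h, 3.93 at 24 h, 1.09 in the 48h-titled library and 0 and 0.125 RPKM in organoids. Its log2 change in organoids against fresh cells was −2.28 (limma adjusted p = 0.113), and with only the groups compared it passed (adjusted p = 0.0211). Igf2 was at 0.745 and 0.0778 RPKM in organoids and at 0.160 and 0.0307 RPKM in fresh cells, and the insulin genes Ins1 and Ins2 were listed at 0 in all 8 libraries.

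Of 66 other genes of the pathway in 5 lists, 52 passed the filter. In organoids against fresh cells 2 of the 52 rose and 3 fell, a share near the 10.1% of all genes called, with a median log2 change of 0.02 against 0.17 over all genes tested. At 12 h against fresh cells 3 rose and 1 fell, where 6.81% of all genes were called (median −0.01 against 0.24). Between organoids and 12 h 0 rose and 2 fell, where 2.0% were called (median −0.15 against −0.09). The called genes lay in 4 of the lists and went in both directions.

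Among receptor adaptors, 1 of 10 tested fell in organoids against fresh cells and 0 rose, where 4.94% of all genes fell and 5.15% rose. It was Grb10, an adaptor that binds the activated insulin and IGF1 receptors and dampens them. Grb10 stood at 0.0239 and 0.517 RPKM in organoids, against 14.3 and 15.5 RPKM in fresh cells and 18.3 and 11.1 RPKM at 12 h. The library at 24 h had 19.8 RPKM and the one titled 48h had 6.31 RPKM. The log2 change was −3.67 against fresh cells (SE 0.46, limma adjusted p = 0.0117) and −3.62 against 12 h (SE 0.46, limma adjusted p = 0.0277). The first call was lost without fresh replicate 1 (adjusted p = 0.134), fresh replicate 2 (0.150) or organoid replicate 1 (0.0529). The second was lost without 12 h replicate 1 (0.0561), 12 h replicate 2 (0.0539) or organoid replicate 1 (0.0847), with no filter (0.0937) and with only the groups compared (0.186). Irs2, an adaptor of the insulin and IGF1 receptors, was at 2.36 and 0.203 RPKM in organoids and 2.98 and 3.30 RPKM in fresh cells (limma adjusted p = 0.273). Irs1, its relative, did not exceed 0.319 RPKM in any library. Insrr, an orphan receptor of the insulin receptor family picked out after its values were seen, stood at 14.4 RPKM in the 24 h library and at most 0.0803 RPKM in any other.

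Among pathway brakes, 1 of 12 tested rose and 2 fell in organoids against fresh cells, where 5.15% of all genes rose and 4.94% fell. Phlda3, a p53 target that keeps AKT from the membrane, reached 121 and 262 RPKM in organoids, against 7.36 and 6.67 RPKM in fresh cells, a log2 change of 4.48 (SE 0.43, limma adjusted p = 0.00664). At 12 h it was the 1 brake of 12 called, with 0 lower, at 109 and 126 RPKM (log2 change 3.88, limma adjusted p = 0.0189). Trib3, a pseudokinase reported to inhibit AKT and a target of the stress factor ATF4, fell to 8.03 and 3.49 RPKM in organoids, against 81.3 and 80.8 RPKM in fresh cells (log2 change −3.69, limma adjusted p = 0.011). It also fell against the 73.4 and 48.1 RPKM at 12 h (log2 change −3.25, limma adjusted p = 0.0302). Socs2, a feedback inhibitor of growth hormone signalling, fell to 3.40 and 7.76 RPKM in organoids, against 23.7 and 29.1 RPKM in fresh cells (log2 change −2.14, limma adjusted p = 0.0481).

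In the PI3K, AKT and mTOR list, 1 of 25 tested rose in organoids against fresh cells, where 5.15% of all genes rose, and 2 of 25 at 12 h, where 3.09% rose, with 0 lower in either. Bad, a pro-death protein held inactive by AKT, stood at 49.7 and 26.6 RPKM in organoids, against 6.96 and 5.13 RPKM in fresh cells (log2 change 2.42, limma adjusted p = 0.0226). At 12 h Bad was at 29.2 and 22.9 RPKM (log2 change 1.94, limma adjusted p = 0.0479), a call that ended after centring (adjusted p = 0.0991). Pik3r2, a regulatory subunit of PI3K, stood at 29.7 and 20.4 RPKM at 12 h, against 5.10 and 3.95 RPKM in fresh cells (log2 change 2.22, limma adjusted p = 0.0461). With the replicate number as a block Pik3r2 missed the threshold (adjusted p = 0.0554). In the list of the IGFBP complex and its proteolysis, 1 of 4 tested fell at 12 h and 0 rose, where 3.72% of all genes fell. It was Stc2, an inhibitor of PAPP-A, at 0.101 and 0.640 RPKM against 6.59 and 4.97 RPKM in fresh cells (log2 change −2.32, limma adjusted p = 0.0443), and the call ended under the same block (adjusted p = 0.0588) and with a pseudocount of 0.1 (0.0517). In organoids Stc2 was at 8.09 and 4.33 RPKM. Stc1 of the same list was at 0.595 and 1.64 RPKM in fresh cells, 1.72 and 14.9 at 12 h and 9.64 and 22.3 in organoids. It was not called against fresh cells (limma adjusted p = 0.281 at 12 h and 0.0836 in organoids). In organoids all 4 tested had log2 changes above 0 against fresh cells, with 0 called. That of Stc2 was 0.05 (SE 0.49), and 7242 of all 12900 genes tested were above 0. Pappa, the PAPP-A gene, did not exceed 0.214 RPKM in any library, and Igfals, picked out after its values were seen, was listed at 0 in the 6 cultured libraries, against 0.932 and 1.65 RPKM in fresh cells. With no filter on low values the calls against fresh cells of Bad (adjusted p = 0.0607), Socs2 (0.111), Stc2 (0.0937), Pik3r2 (0.0968) and, at 12 h, Bad (0.0978) ended, and so did that of Trib3 against 12 h (0.120), which was 0.186 with only the groups compared. Socs2 was also lost with a pseudocount of 0.1 (0.0599) and Stc2 with only the groups compared (0.0501).

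All calls of Phlda3, Trib3 and Socs2 against fresh cells, and those of Bad, Pik3r2 and Stc2, ended without either fresh library, when 0 genes of the table passed. The adjusted p was then 0.0858 and 0.0853 for Phlda3 in organoids and 0.123 and 0.122 at 12 h, 0.125 and 0.130 for Trib3, 0.267 and 0.358 for Socs2, and 0.163 and 0.229 for Bad in organoids. For Bad, Pik3r2 and Stc2 at 12 h it lay between 0.241 and 0.342. Leaving out 12 h replicate 1 or 12 h replicate 2 also ended the 12 h calls of Phlda3 (0.0549 and 0.0525), Bad (0.123 and 0.0884), Pik3r2 (0.117 and 0.0764) and Stc2 (0.0933 and 0.0648). In organoids against fresh cells the call of Bad ended without organoid replicate 1 (0.0653), and that of Socs2 without organoid replicate 1 (0.132) or organoid replicate 2 (0.0505). The call of Trib3 in organoids against 12 h ended without 12 h replicate 1 (0.0720), 12 h replicate 2 (0.0573), organoid replicate 1 (0.0731) or organoid replicate 2 (0.0506).

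**Figure D5:**
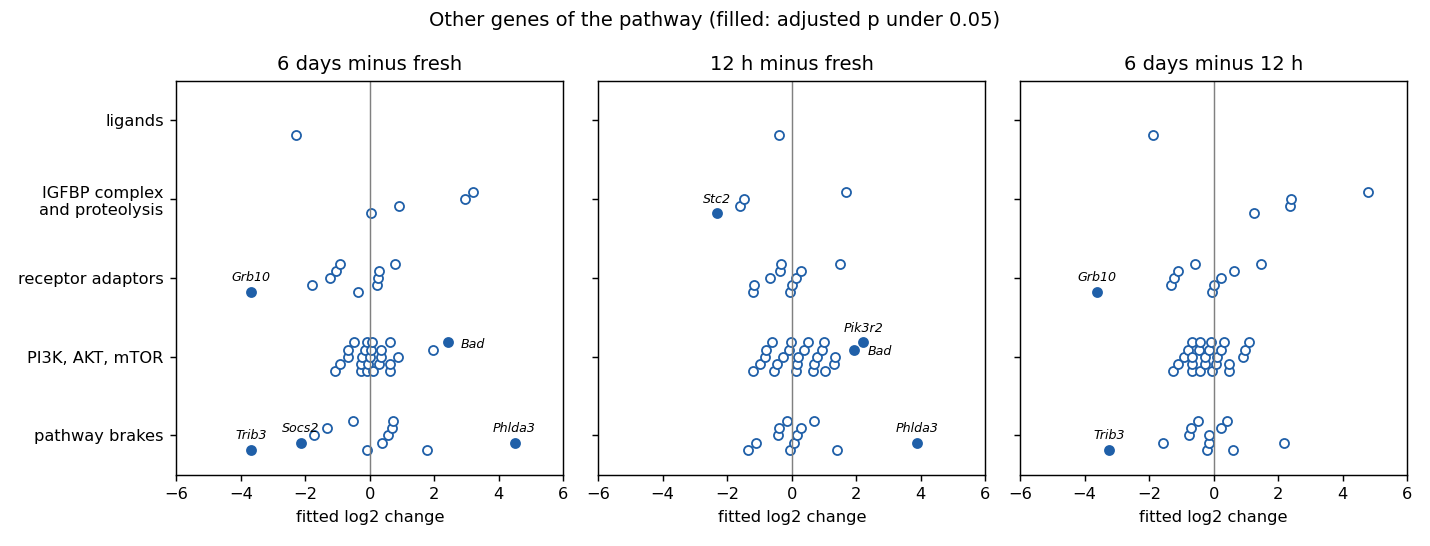
Fitted log2 changes of the 52 other pathway genes tested, by list, in organoids minus fresh cells, 12 h minus fresh cells and organoids minus 12 h. Each point is a gene, and filled, named points had an adjusted p under 0.05. Grb10, Trib3 and Phlda3 stand farthest out among the called genes. Tmprss4, which was not called, lies farther out in organoids minus 12 h, at 4.79.

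The genes with the time course most like each member were taken from 6951 protein-coding genes averaging 5 RPKM or more. Likeness was the root mean square difference of log2(RPKM + 1) over the 8 libraries after each gene was centred on its own mean. For Igfbp4 the closest were Pimreg, at 0.57, and Cenpa, the centromeric histone gene, at 0.62. Cenpa was at 30.3 and 18.1 RPKM in organoids, 27.7 RPKM in the 48h-titled library and at most 0.551 RPKM in the other 5. For Igfbp3 they were Pigs (0.47) and Cd320 (0.53), and for Igfbp7 Prkra (0.32) and Plscr2 (0.39). Prkra was at 44.4 and 28.9 RPKM in organoids and 3.85 and 4.59 RPKM in fresh cells. For the receptors the closest were Tnpo3 (0.23) and Serbp1 (0.24) for Igf1r, Ppp1r13l (0.20) and Smyd5 (0.21) for Igf2r, and Arhgap5 (0.18) and Tmem173 (0.24) for Insr. Tmem173, which encodes the DNA-sensing adaptor STING, had its highest value, 126 RPKM, in the 24 h library, as Insr did.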

How the data were processed

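RNA was extracted on micro-scale columns and turned into Smart-seq2 and Nextera XT libraries, per the labels. The authors deposited RPKM per gene for each library, and per the submitters' processing notes used GRCm38 and edgeR. Not given in the sources used here: aligner, counter, annotation release, strandedness and filters. GENCODE M21 named 47310 of 47729 identifiers, and promoter windows came from RefSeq. The RPKM of 1 read times exonic length gave the effective reads per library, and between 91.0% and 93.2% of small values (up to 20 reads) were then whole within 0.05. Limits of 3 reads cover counting error only, as the reads carry no molecular identifiers.

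The scale was log2(RPKM + 1), one that understates changes of low genes, and 12900 genes reaching 1 RPKM in 2 or more libraries entered limma 3.58.1 in R 4.3.3. The model had 1 coefficient for each of 5 groups, no covariate and variances that follow the mean, with 3 residual and 3.65 prior degrees of freedom. Two-sided p-values were Benjamini-Hochberg adjusted over all genes within a comparison (threshold 0.05). The single libraries at 24 h and titled 48h were not tested. The procedure was tested on simulated data with normal noise, spreads shuffled between genes and a single large size of planted change. That test does not cover smaller changes or genes missing from a library. Named genes were all members, up to 4 called genes per list and comparison, Igf1, Igf2, Irs1, Irs2 and Phlda3, and the 2 genes most like each member. Members and lists were chosen with earlier results of these data known. The alternatives were another pseudocount, other filters, centring, only the groups compared, a replicate block and leaving out each library.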

Additional observations from a re-analysis of the deposited data

How the results depend on the processing

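The lowest and highest numbers of genes called when 1 library was left out were 0 and 1418 in organoids against fresh cells, 0 and 94 at 12 h against fresh cells, and 0 and 321 in organoids against 12 h (main 1301, 878 and 258). Where limma called 0 genes in these runs, between 1672 and 3458 had an unadjusted p under 0.05, with the lone remaining library taken to vary as other groups do. With no filter on low values 26693 genes were tested and the calls were 740, 423 and 0 (3379 at an unadjusted p under 0.05) in the same order. In organoids against 12 h the calls were 418 with a pseudocount of 0.1, 0 with only the groups compared (1686 at an unadjusted p under 0.05), and 151 over genes averaging 5 RPKM or more.

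The labels give R1 and R2 in each replicated group but do not say that a number marks a shared animal or day. The differences between replicates 1 and 2 correlated over genes by 0.22 for organoids and fresh cells, 0.19 for 12 h and fresh cells and 0.02 for organoids and 12 h, so the numbers were not used as pairs, and whether they mark a shared animal or day is not known. With the replicate block the calls were 1419, 713 and 208, and all calls of the members stayed.

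Among members and named genes, 16 values turned their sign, none of them called before or after. After centring these were Igf1r in organoids against fresh cells (−0.14), Igfbp7 (−0.30) and Irs2 (−0.0687) at 12 h against fresh cells, and Igf2r in organoids against 12 h (0.13). Without fresh replicate 1 they were Igf1r in organoids (−0.33) and Igfbp7 at 12 h (−0.18), and without organoid replicate 2 Igf1r in organoids (−0.08). At 12 h against fresh cells they were Igf1 without 12 h replicate 1 (0.85), and Igfbp4 (0.21), Igfbp7 (−0.19) and Insr (0.0547) without 12 h replicate 2. In organoids against 12 h they were Igf2r without 12 h replicate 1 (0.42) or organoid replicate 1 (0.31), Igfbp3 without 12 h replicate 2 (−0.07) or organoid replicate 2 (−0.13), and Insr without 12 h replicate 2 (−0.52). The other end of the range of these values over the libraries left out was 0.34 for Igf1r in organoids against fresh cells. At 12 h against fresh cells it was −0.50 for Igfbp4, 0.33 for Igfbp7, −1.16 for Insr and −1.63 for Igf1, and in organoids against 12 h 0.95 for Igfbp3, −0.60 for Igf2r and 0.69 for Insr. The causes were not tested. Depth limits Igfbp6, seen by 1 read, and the levels of Igfbp1, Igfbp2 and Igfbp5 in cultured cells, where at most 6 reads were found.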
